A study of Homo sapiens with 6 samples.

Results

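The genes described here encode the protein parts of the spliceosome: the proteins of the small nuclear ribonucleoproteins (snRNPs) and the helicases and scaffold proteins that act with them. They were taken as the protein-coding genes whose symbol matched a fixed pattern of names (SNRP, SNRNP, SF3A, SF3B, PRPF and LSM families, the helicases DHX8, DHX15, DHX16, DHX38, DDX23 and DDX46, and EFTUD2, CDC5L, the CWC family, SLU7, SYF2, XAB2, BUD31, AQR and RNPC3). All 72 such genes of the annotation were among the 13885 genes of the authors' deposited table, so no member was lost to a filter. RNA was measured in BE(2)-C, a MYCN-amplified human neuroblastoma line, in 6 samples of 2 groups. In each group 3 samples had been transfected for 24 h, with an siRNA against PCIF1 (siPCIF1) in one group and with a scrambled control (siScramble) in the other, and all 6 received all-trans retinoic acid (10 µM) for 4 days afterwards. PCIF1 is the methyltransferase that adds the N6-methyl mark to an adenosine next to the mRNA cap (m6Am). The files give a DESeq2 comparison of the groups and no value per sample was analysed here. The fitted standard error (SE) of each log2 fold change is the only measure of precision, and the spread between samples itself was not seen. The labels do not tell whether samples within a group are separate cultures. The p-values therefore rest on the SE that DESeq2 fitted to these samples, and measure no spread beyond them.

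A fold change is given as siPCIF1 over siScramble, with the direction taken from PCIF1 itself, at -0.82 (SE 0.19; DESeq2 adjusted p = 0.000167) per the authors' deposited table. The name of that table lists siScramble first, and with the plain reading of that order every sign below would turn; the sign of PCIF1 is therefore no evidence of the knockdown. Among 11 markers of adrenergic neuroblastoma all 11 were listed per the authors' deposited table, with a median mean normalised count of 2554, whereas 0 of 3 immune and 0 of 3 endothelial markers were listed. Of fibroblast markers 4 of 6 were listed, with PDGFRB lower and COL1A2 and COL3A1 not listed, of Schwann cell markers 2 of 4, with S100B higher by DESeq2 and SOX10 among those not listed, and 3 of 3 epithelial markers had means of 12.2 to 40.7, per the authors' deposited table; their part in the results was not tested. In RNA from whole cultures, fewer cells of a type and less RNA per cell cannot be told apart.

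The spliceosome removes introns from pre-mRNA. U1 snRNP binds the 5′ splice site and U2 snRNP the branch site, the U4/U6.U5 tri-snRNP then joins, and after remodelling by helicases the complex that holds the Prp19 proteins carries out both catalytic steps. The U1, U2, U4 and U5 RNAs carry a ring of Sm proteins, and U6 carries a ring of the related LSm proteins. Since these proteins work in particles of set composition, the genes of 1 particle are described together below.

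Spliceosomal genes moved in both directions, often within the same particle. By the DESeq2 test per the authors' deposited table (adjusted p under 0.05), 13 of the 72 rose and 7 fell, or 18.1% and 9.72%. The background per the authors' deposited table was 16.3% of all genes higher and 17.7% lower, so the share that rose was near that of all genes and the share that fell was below it. Another 8 members had an unadjusted p under 0.05 and did not pass. The median log2 fold change of the 72 was 0.02 against 0.0059 for all genes per the authors' deposited table, and members ran from -0.69 (SF3B5) to 0.90 (PRPF4B). By particle, the median per the authors' deposited table was 0.28 for U1, 0.22 for U2, 0.03 for the tri-snRNP, 0.06 for the Sm ring and -0.16 for the LSm ring. These calls depend on the null spread: with the Wald statistics scaled to their robust SD of 2.44, 0 of the 72 members passed from the DESeq2 values, against 0.151% of all genes as higher and 0.821% as lower. Fold changes over the whole table also followed a trend on transcript GC content, transcript length and mean expression, and calls that ended once it was removed are named group by group.

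**Figure D1:**
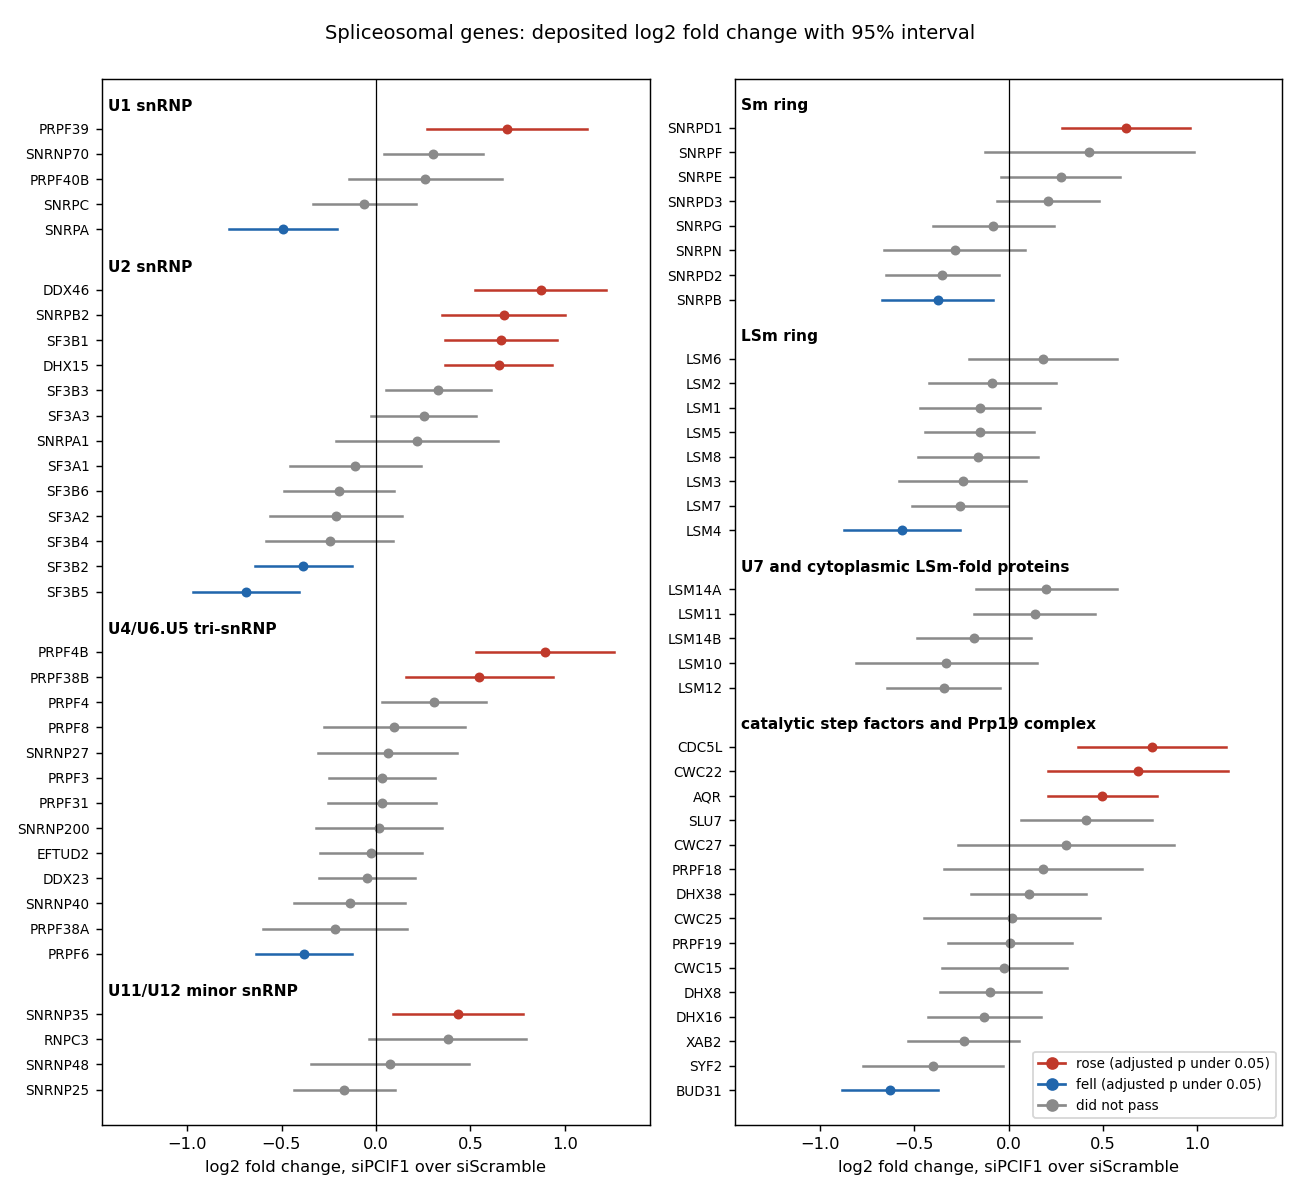
Log2 fold change (horizontal axis, siPCIF1 over siScramble) of 71 of the 72 spliceosomal genes by particle per the authors' deposited table. Points are fold changes, lines are 95% intervals from the SE, and colours mark genes that rose, fell or did not pass. U1, U2, the tri-snRNP, the Sm ring and the Prp19 and catalytic genes each hold genes that rose and genes that fell.

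The mark made by PCIF1 depends on the first transcribed base, so annotated start sites of some, not all, of the members that changed are shown. The base RefSeq gives as the first of the transcript is in capitals, with 15 bases before and 14 after it.
SF3B1: gttcttgggagcgccAgttccgtctgtgtg
SF3B5: ccgcgcggtggcttcActctcctgtaaaac
SF3B2: gcttccgggttggtcGcgcgccttcctgcg
SNRPB2: tgcctggctccgtttCctgcttttggttct
DDX46: cggcgccagcacgtcCtgttttcgttggcc
LSM4: gcgacgaccgccgggAgcgtgtgcagcggc
BUD31: gagcggaagccttctGtcgagaagcagcta
CWC22: tttgtagttcatgccAacttctcttttttg
These windows lie in GRCh38.p14 at chr2:197435014-197435043 (SF3B1, minus strand), chr6:144095559-144095588 (SF3B5, minus strand), chr11:66052349-66052378 (SF3B2, plus strand) and chr20:16730011-16730040 (SNRPB2, plus strand). The others lie at chr5:134758764-134758793 (DDX46, plus strand), chr19:18323062-18323091 (LSM4, minus strand), chr7:99408954-99408983 (BUD31, plus strand) and chr2:180007283-180007312 (CWC22, minus strand). RefSeq windows were matched for 62 of the 72 members. The first base was A in 26 of them (41.9%), G in 22 and C in 14, against A in 46.1% of 9411 protein-coding genes of the table with a window. Of members with A, 4 rose and 2 fell (15.4% and 7.69%), against 18.6% and 18.5% of all genes with A, by DESeq2 per the authors' deposited table. Of members with C, 4 rose and 1 fell (28.6% and 7.14%), against 13.2% and 22.8% of all genes with C. Of the 22 with G, 0 rose and 4 fell (18.2%), against 16.4% and 17.7% of all genes with G. The median log2 fold change per the authors' deposited table was 0.04 for members with A, 0.02 for C and -0.13 for G. Over all protein-coding genes with a window, those medians were 0.02, -0.08 and -0.01 per the authors' deposited table. SF3B1 and SF3B5, partners in 1 complex that moved in opposite directions, both have an annotated A. Transcription starts at several positions in many genes, and the position used in these cells was not measured. The CWC22 window lies wholly upstream of the gene model used for its other values, which begins at position 180007113 on the minus strand.

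In the U1 snRNP 2 of 6 genes rose (33.3%) and 1, a core protein, fell (16.7%), against 16.3% and 17.7% of all genes. PRPF39, an alternative splicing factor of U1, was at 0.69 (SE 0.22; adjusted p = 0.00661 by DESeq2) per the authors' deposited table, or 162% of the control level. SNRPA, which encodes the A protein that binds a stem-loop of U1 RNA, was the member that fell, to 71.0% of the siScramble level (58.3 to 86.5%; log2 fold change -0.49, DESeq2 adjusted p = 0.0037) per the authors' deposited table. The other core proteins did not pass: SNRNP70, the U1-70K protein, was at 0.30 (SE 0.13) and SNRPC, which contacts the 5′ splice site helix, at -0.06 (SE 0.14) per the authors' deposited table. PRPF40B, a U1-associated protein, was at 0.26 (SE 0.21) per the authors' deposited table at a mean of 86.4 normalised counts. Neither PRPF39, at 0.36, nor SNRPA, at -0.23, passed with the trend removed. With SNRNP70, SNRPA and SNRPC alone the U1 median per the authors' deposited table was -0.06, and with the trend removed it was 0.18. SNRNP70 passed with the trend removed, at 0.66 (adjusted p = 1.87e-05 from the DESeq2 values).

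In the U2 snRNP 4 of 13 genes rose and 2 fell by DESeq2 per the authors' deposited table. Those shares were 30.8% and 15.4%, against 16.3% and 17.7% of all genes. DDX46 (the human Prp5 helicase, which remodels U2 as it joins the branch site; ENSG00000145833.15, chromosome 5 from 134758771 to 134855133) was at 0.87 (SE 0.18) per the authors' deposited table, or 183% of the siScramble level (144 to 233%; DESeq2 adjusted p = 1.15e-05). DHX15, the Prp43 helicase that takes spliceosomes apart and is also found with U2, was at 0.65 (SE 0.15; DESeq2 adjusted p = 8.84e-05) per the authors' deposited table. SNRPB2, the U2B″ protein that binds U2 RNA, was at 0.68 (SE 0.17; DESeq2 adjusted p = 0.000362) per the authors' deposited table, whereas SNRPA1, which encodes its partner in U2, was at 0.22 (SE 0.22) and did not pass. Without the helicases DDX46 and DHX15, the U2 median per the authors' deposited table was -0.11, with 2 genes up and 2 down by DESeq2. With the trend removed the median of those U2 genes was 0.12, with 2 higher and 0 lower. DDX46 overlaps C5orf24 on the same strand, which was at 0.21 (SE 0.16) and did not pass per the authors' deposited table.

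The split ran through SF3B, the U2 complex that clamps the branch site. SF3B1, the large scaffold that surrounds the branch-site adenosine, rose to 158% of the siScramble level per the authors' deposited table (129 to 194%; log2 fold change 0.66, DESeq2 adjusted p = 0.00012). SF3B5, a small subunit encoded by a gene without introns (ENSG00000169976.6; chromosome 6, 144094881 to 144095573), fell to 62.1% (51.2 to 75.4%; log2 fold change -0.69, DESeq2 adjusted p = 1.98e-05) per the authors' deposited table. SF3B2, which contacts the pre-mRNA upstream of the branch site, fell to 76.6% (64.2 to 91.4%; DESeq2 adjusted p = 0.013) per the authors' deposited table. SF3B3, SF3B4 and SF3B6 did not pass and were at 0.33, -0.25 and -0.20 per the authors' deposited table (SEs 0.14 to 0.17). Among the SF3A subunits, which link SF3B to the rest of U2, SF3A1, SF3A2 and SF3A3 were at -0.11, -0.21 and 0.25 per the authors' deposited table, and 0 of 3 passed the DESeq2 test or had an unadjusted p under 0.05. SF3B1 still passed with the trend removed, at 0.47, whereas SF3B5 was at -0.35 and SF3B2 at -0.16 and neither passed. SF3B5 also had the largest mean per transcript length of the U2 genes, at 1463 normalised counts per kb per the authors' deposited table, against 319 per kb for SF3B1.

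Core proteins of the tri-snRNP showed small fold changes. PRPF8, the scaffold at the centre of the spliceosome, was at 0.10 (SE 0.19), the helicase SNRNP200 (Brr2), which unwinds U4 from U6, at 0.02 (SE 0.17) and the GTPase EFTUD2 (Snu114) at -0.03 (SE 0.14) per the authors' deposited table. The 95% intervals of these genes were 82.6 to 139%, 80.4 to 127% and 81.4 to 119% of the siScramble level per the authors' deposited table, so changes within those bounds could not be seen. DDX23, the Prp28 helicase that displaces U1, was at -0.05 (SE 0.13) and SNRNP40, a U5 protein, at -0.14 (SE 0.15) per the authors' deposited table. Of the U4/U6 proteins, PRPF3, PRPF31 and PRPF4 were at 0.03, 0.03 and 0.31 per the authors' deposited table (SEs 0.14 to 0.15), and none of these 3 passed; SNRNP27 was at 0.06 (SE 0.19). PRPF6, which bridges U5 and U4/U6, was the gene that fell, to 76.8% (64.4 to 91.5%; DESeq2 adjusted p = 0.0127) per the authors' deposited table. PRPF4B, a kinase that phosphorylates tri-snRNP proteins (ENSG00000112739.16; chromosome 6, 4021267 to 4064983), had the largest increase of all 72 members, at 0.90 (SE 0.19) or 186% (144 to 240.1%; DESeq2 adjusted p = 2.28e-05) per the authors' deposited table. PRPF38B was at 0.55 (SE 0.20; DESeq2 adjusted p = 0.022) per the authors' deposited table, whereas PRPF38A, which joins with the tri-snRNP, was at -0.22 (SE 0.19). PRPF4B still passed with the trend removed, whereas PRPF38B was at 0.34 and PRPF6 at -0.16 and neither passed. Without PRPF4B, PRPF38A and PRPF38B, 0 of 10 tri-snRNP genes rose by DESeq2 per the authors' deposited table, against 16.3% of all genes. Of the 10, 2 had an unadjusted p under 0.05, PRPF6 and PRPF4.

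In the Sm ring, which the major snRNPs other than U6 share, 1 of 8 genes rose and 1 fell. These shares of 12.5% each compare with 16.3% and 17.7% of all genes. SNRPD1 (SmD1) was at 0.62 (SE 0.17; DESeq2 adjusted p = 0.00193), or 154% (122 to 194%), per the authors' deposited table. SNRPB, which encodes SmB and SmB′, was at -0.38 (SE 0.15; DESeq2 adjusted p = 0.0368), or 77.0% (62.9 to 94.3%), per the authors' deposited table. The other ring genes did not pass: SNRPD2 was at -0.35 (SE 0.15), SNRPG at -0.08 (SE 0.16), SNRPD3 at 0.21 (SE 0.14), SNRPE at 0.28 (SE 0.16) and SNRPF at 0.43 (SE 0.28) per the authors' deposited table. SNRPN, the imprinted neuronal paralogue of SNRPB, was at -0.29 (SE 0.19) per the authors' deposited table and overlaps SNHG14 on the same strand. With the trend removed SNRPD1 was at 0.36 and SNRPB at -0.07, and neither passed. Levels per transcript length differed widely among ring genes, from 46.7 normalised counts per kb for SNRPD1 to 2117 for SNRPD2 per the authors' deposited table. The SNRPD1 value divides by a main transcript of 4909 bases; which isoform the cells made is not known, and a shorter one would give a higher value. Some Sm genes have copies in the genome, with 20 annotated pseudogenes named after SNRPG and 9 after SNRPE but 0 after SNRPD1 and SNRPD3. Copies under other names were not counted, and 2 of the SNRPG pseudogenes are themselves listed in the authors' deposited table. The sources used here do not say how reads shared with such copies were counted.

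In the LSm ring 7 of 8 genes had values below 0, against 6885 of 13885 genes of the whole table. Of the 8, 1 fell (12.5%), against 17.7% of all genes. LSM4, a subunit of both LSm rings, was the gene that passed, at -0.56 (SE 0.16; DESeq2 adjusted p = 0.002) or 67.7% (54.7 to 83.8%) per the authors' deposited table. LSM4 was at -0.24 with the trend removed and did not pass. LSM2, LSM3, LSM5, LSM7 and LSM8, which with LSM4 and LSM6 form the nuclear ring on U6, lay between -0.26 and -0.09 per the authors' deposited table, and LSM6 was at 0.18 (SE 0.20). LSM1, which replaces LSM8 in the cytoplasmic ring that acts in mRNA decay, was at -0.15 (SE 0.16) per the authors' deposited table. Among LSm-fold proteins outside that ring, LSM10 and LSM11 of the U7 snRNP of histone mRNA processing were at -0.33 (SE 0.24) and 0.14 (SE 0.16) per the authors' deposited table. LSM12, LSM14A and LSM14B, which are not splicing factors, were at -0.35, 0.20 and -0.18 per the authors' deposited table. By DESeq2 0 of these 5 passed, and 1, LSM12, had an unadjusted p under 0.05.

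Among 15 genes of the Prp19 complex and the catalytic steps, 3 rose (20%) and 1 fell (6.67%), against 16.3% and 17.7% of all genes. CDC5L, a scaffold of the Prp19 complex, was at 0.76 (SE 0.20) or 169% (129 to 222%; DESeq2 adjusted p = 0.000962) per the authors' deposited table. AQR, the helicase that binds the intron near the branch site, was at 0.50 (SE 0.15; DESeq2 adjusted p = 0.00406), and CWC22, which brings exon junction complexes to spliced mRNA, at 0.68 (SE 0.24; DESeq2 adjusted p = 0.0205) at a mean of 43.8 per the authors' deposited table. BUD31, a small protein near the catalytic centre (ENSG00000106245.10; chromosome 7, 99408641 to 99419616), was at -0.63 (SE 0.13) or 64.7% (54.3 to 77.2%; DESeq2 adjusted p = 1.77e-05) per the authors' deposited table. With the trend removed 0 of the 15 genes were higher: CDC5L was at 0.43, CWC22 at 0.38 and AQR at 0.19, and all these increases lost their call. On the same scale 2 of the 15 were lower, BUD31 and SYF2. PRPF19 itself, the ubiquitin ligase that names the complex, was at 0.0081 (SE 0.17) per the authors' deposited table. SLU7, a factor of the second catalytic step, was at 0.41 (SE 0.18) and SYF2 at -0.40 (SE 0.19), and neither passed per the authors' deposited table. PRPF18, CWC15, CWC25, CWC27 and XAB2 lay between -0.24 and 0.30 per the authors' deposited table, short of the threshold. BUD31 overlaps PDAP1 on the opposite strand, which was at 0.22 (SE 0.19) per the authors' deposited table.

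Helicases did not move as 1 class. Of the 8 ATP-driven helicases, DDX46, DHX15 and AQR rose per the authors' deposited table by DESeq2 and the other 5 did not pass, against a background of 16.3% of all genes higher. DHX16, DHX38 and DHX8, the human Prp2, Prp16 and Prp22 that drive activation, the second step and mRNA release, were at -0.13 (SE 0.15), 0.11 (SE 0.16) and -0.10 (SE 0.14) per the authors' deposited table. DDX46 and DHX15 still passed with the trend removed and AQR did not. The median of the 8 was 0.06 per the authors' deposited table. In the U11/U12 particle, which recognises the rare minor introns, SNRNP35 was at 0.43 (SE 0.17; DESeq2 adjusted p = 0.0407) and RNPC3, SNRNP48 and SNRNP25 at 0.38, 0.07 and -0.17 with SEs of 0.14 to 0.21 per the authors' deposited table.

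Members that rose were expressed at lower levels per transcript length than members that fell. The 13 that rose had 13.3 to 319 mean normalised counts per kb per the authors' deposited table, with a median of 64.5. The 7 that fell had 318 to 1463 per kb, with a median of 842 per the authors' deposited table, so the sets met only at SF3B1 and SNRPA. Over all genes the medians were 48.2 per kb for those that rose, 125 for those that fell and 47.8 for those that did not pass. Over the whole table only the genes that fell therefore stood apart. Members that did not pass had a median of 152 per kb. BUD31, SF3B5 and PRPF6, all of which fell, were each the highest of their group.

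**Figure D2:**
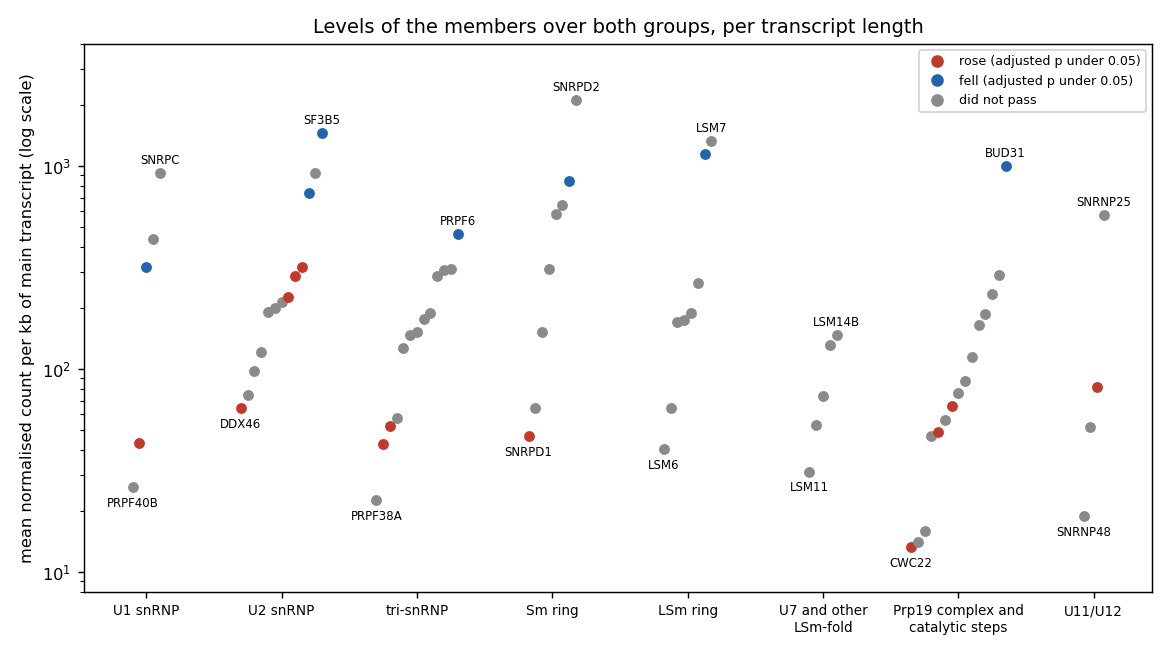
Mean normalised count over both groups per kb of main transcript (vertical axis, log scale) for 71 of the 72 genes, by particle (horizontal axis), from the authors' deposited table; colours mark genes that rose, fell or did not pass. Genes that fell lie at 318 per kb or above and genes that rose at 319 per kb or below.

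The genes that rose and fell also differed in base composition, without overlap, in the direction seen over the whole table. All 13 that rose have main transcripts of 36.9% up to just under 50% GC and all 7 that fell of 54.4 to 59.5% GC. Per the authors' deposited table as a whole, genes that rose had a median GC content of 42.2% and genes that fell of 55.1%; 82.1% of those that rose and 30.4% of those that fell were under 50% GC. Across the 72 members Spearman's rho of GC content with the log2 fold change per the authors' deposited table was -0.55, and across 13877 genes of the table it was -0.42; these are descriptions across genes, which share libraries and are not independent. For transcript length rho was 0.44 over the 72 members and 0.24 over all genes, and for the number of introns 0.34 and 0.07. Within ranges of GC content, the shares of members called lay near those of all genes in some ranges and apart in others. Below 40% GC, 4 of 11 members (36.4%) rose against 37.0% of all genes and 0 fell against 5.21%. From 55% GC up, 6 of 19 (31.6%) fell against 29.1% and 0 rose against 4.81% per the authors' deposited table by DESeq2. Between 40 and 45% GC, 8 of 19 members (42.1%) rose against 27.1% of all genes and 0 fell against 8.92% per the authors' deposited table. Between 45 and 50% GC, 1 of 11 members (9.09%) rose against 12.9% and 0 fell against 15.1%. Between 50 and 55% GC, 1 of 12 members (8.33%) fell against 21.5% and 0 rose against 9.14%.

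**Figure D3:**
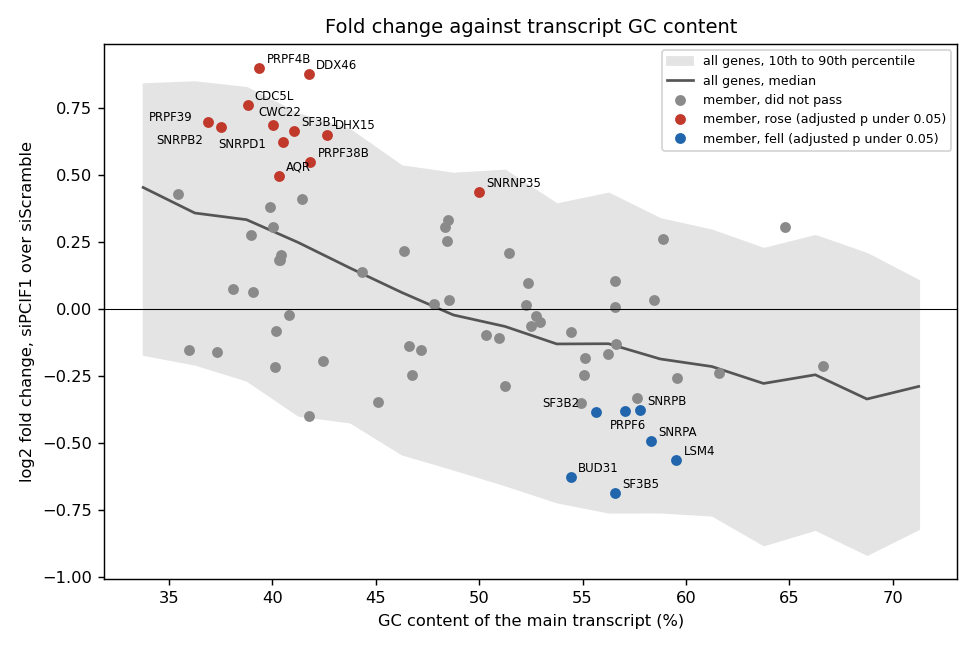
Log2 fold change per the authors' deposited table (vertical axis) against GC content of the main transcript in percent (horizontal axis). Dots are 71 of the 72 members, the line is the median of all genes and the shaded band their 10th to 90th percentile; members that rose lie below 50% GC and members that fell at 54.4% or above.

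The trend of fold change on GC content, transcript length and mean expression was therefore removed for all genes and the test repeated with the SEs of the authors' deposited table. Then 9 members were higher and 5 lower, against 10.8% and 13.9% of all genes. Of the 13 that had risen, 7 still passed, among them DDX46, PRPF4B, DHX15, SF3B1, SNRPB2 and SNRNP35, with adjusted values of 0.44 to 0.68 for log2 fold change from the authors' deposited table. DDX46 was then the highest, at 0.68 (adjusted p from the DESeq2 values 0.00121). Of the 7 that had fallen 1 still passed, BUD31, at -0.36 (adjusted p = 0.0251 from the DESeq2 values). The other 6 that had risen (CDC5L, CWC22, SNRPD1, PRPF39, PRPF38B and AQR) and the other 6 that had fallen did not pass, with SF3B5 nearest, at an adjusted p of 0.0533 from the DESeq2 values. Members that passed only after this step were SNRNP70 (0.66, adjusted p = 1.87e-05 from the DESeq2 values) and SNRPD3 (0.35) as higher, and SYF2 (-0.53), PRPF38A (-0.52), LSM5 (-0.45) and LSM12 (-0.40) as lower. SNRNP70 has a transcript of 64.8% GC and was at 0.30 as deposited, while the median of genes in its range of GC content was -0.28 per the authors' deposited table. The U2 median was 0.22 both with and without the trend, that of U1 became 0.37, and that of the LSm ring was -0.17.

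Under other settings the member counts are given beside the shares of all genes. Centred on the median, 13 members were higher and 7 lower, the same genes as deposited, against 16.1% and 17.9% of all genes. That median was only 0.0059, so centring could hardly change a call. When genes under a mean of 100 were left out, which kept 63 members, 14 were higher and 7 lower, against 19.5% and 22.2%. At an adjusted p of 0.01 from DESeq2, 10 members were higher and 4 lower, against 10.7% and 12.1% of all genes per the authors' deposited table. At 0.1 there were 17 higher and 10 lower by DESeq2, against 20.1% and 21.1%. With a log2 change of at least 0.5 as well, 11 were higher and 3 lower, against 13.1% and 13.4%. In a test against a log2 change of 0.3, 3 were higher, among them PRPF4B and DDX46, and 0 lower, against 3.87% and 5.21%. Estimated without shrinkage, 15 were higher and 9 lower, against 18.3% and 19.2%. That last step enlarges every ratio of fold change to SE, so it could only add calls and does not test them.

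**Figure D4:**
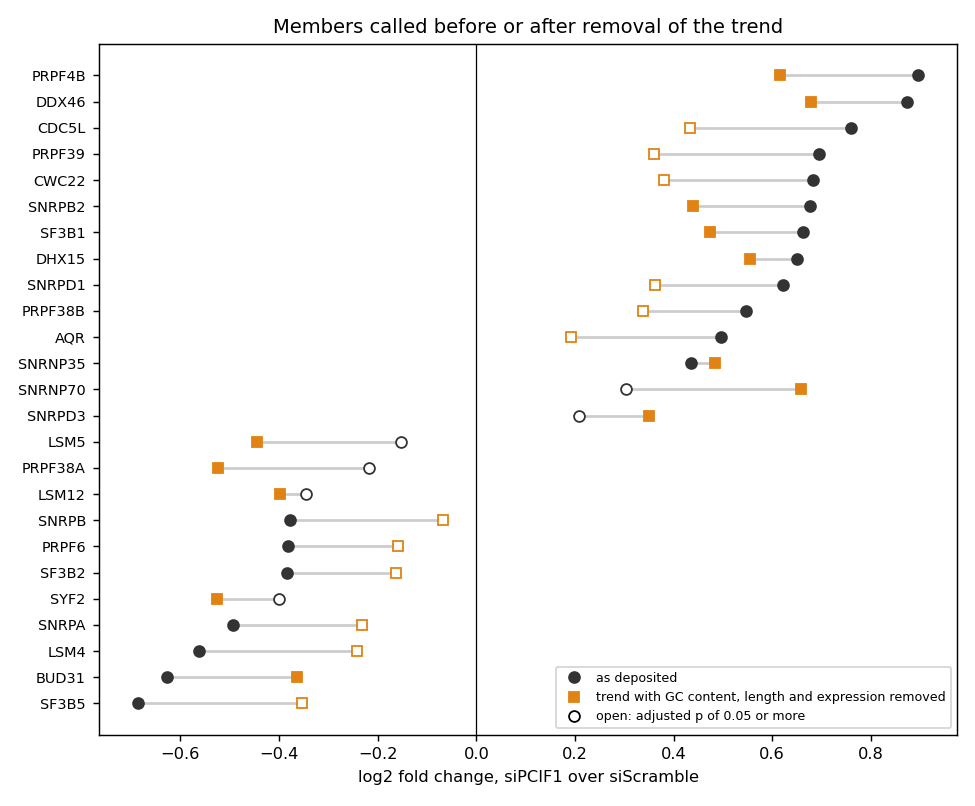
Log2 fold change (horizontal axis) of 25 of the 26 members that passed an adjusted p of 0.05 as deposited (circles) or with the trend removed (squares); open symbols did not pass. Of the 12 members drawn that rose as deposited 6 are filled in both, and of the 7 that fell 1, BUD31.

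The word TCAAGT, which had stood out in earlier results of these data, was also searched for. The main 3′ UTR held it, on the transcript strand, in 17 of 72 members (23.6%) and in 30.8% of 11790 protein-coding genes. Of the 17, 4 rose (23.5%; SF3B1, SNRPD1, AQR and SNRNP35) and 0 fell by DESeq2 per the authors' deposited table, against 23.8% and 15.1% of all protein-coding genes with the word. Their median was 0.14 against 0.0081 for the other members per the authors' deposited table, and over all protein-coding genes the medians were 0.10 with the word and -0.05 without. With the trend removed the members' medians were -0.06 and 0.08, and those of all protein-coding genes -0.05 and 0.01.

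Other spliceosome genes, fixed as lists outside the name pattern, had 13 of 76 listed genes higher (17.1%) and 9 lower (11.8%) by DESeq2 per the authors' deposited table, against 16.3% and 17.7% of all genes. With the trend removed 7 were higher and 5 lower, against 10.8% and 13.9%. PPIL1, a cyclophilin of the active spliceosome, had by far the largest change of these 76, at -1.16 (SE 0.14; DESeq2 adjusted p = 6.39e-14) per the authors' deposited table, and still passed with the trend removed, as did LUC7L3, MFAP1, IK, PPIH, ZMAT5, SCNM1 and LARP7 of the genes named below. U2SURP, PHF5A, CDC40, GPKOW, PPIE, WBP4, CD2BP2, SNU13, TGS1, PHAX and GEMIN5 did not, with adjusted p-values of 0.0937 (TGS1) to 0.417 (SNU13) from the DESeq2 values. In the same list of Prp19 and catalytic genes 1 of 18 rose, CDC40 (Prp17) at 0.67, and 3 fell, PPIL1, GPKOW at -0.52 and PPIE at -0.45 per the authors' deposited table. Among 16 U1 and U2 associated genes 5 rose and 1 fell by DESeq2; LUC7L3, a U1-associated protein, and U2SURP were at 0.82 and 0.72, and PHF5A, the SF3B subunit that cradles the branch-site adenosine with SF3B1, fell by 0.42 on the log2 scale per the authors' deposited table. U2AF1 was at a mean of 12.9 per the authors' deposited table, and its reads may be shared with a near-identical copy. Of 13 tri-snRNP and B-complex genes 3 rose, MFAP1 at 0.58, WBP4 at 0.77 and IK at 0.52, and 3 fell, CD2BP2 at -0.46, PPIH at -0.61 and SNU13 at -0.38, per the authors' deposited table. In the U11/U12 list ZMAT5 and SCNM1 fell, at -0.75 and -0.62 per the authors' deposited table, while the other 3 did not pass. Of 24 listed genes of snRNP assembly 4 rose by DESeq2: LARP7, a U6-binding chaperone, at 0.77, the cap hypermethylase TGS1 at 0.57, the snRNA export adaptor PHAX at 0.43 and GEMIN5, which recognises snRNAs for the SMN complex, at 0.41 per the authors' deposited table. The remaining 20 of that list did not pass; PRMT5, which methylates Sm proteins, was at -0.28 (SE 0.14) per the authors' deposited table.

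Reads from overlapping genes could touch some values. In all, 20 members overlap a listed gene on the opposite strand, 5 of them among the 20 that passed (SNRPA, PRPF39, BUD31 and SNRNP35 among them), and the libraries were strand-specific per the labels, but the strand setting used for counting is unknown here. PRPF39 and its overlapping neighbour FKBP3 were at 0.69 and 0.42 per the authors' deposited table.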

How the data were processed

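The data were 1 table of a DESeq2 comparison on the hg38 build, as the authors deposited it. Tools named in the submitters' processing notes are STAR 2.7.10a, HTSeq and DESeq2, with bcl2fastq 2.20, cutadapt 3.7 and deepTools; annotation and settings are not stated there. Per the labels, libraries were made from poly(A)+ RNA with a stranded kit. Per the file headers, the authors gave each gene a mean of normalised counts, a signal over all samples. The log2 fold change and its log2 SE are as the authors deposited them. The Wald statistic, a score with no fixed range, was deposited beside them. The p-value and adjusted p-value are those of the authors, and the latter matched a Benjamini-Hochberg adjustment over the listed genes. Depth is unknown, and the SE, 0.13 to 0.29 among members, stands for the precision.

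Identifiers without version were matched to GENCODE 29 (GRCh38) for 13877 of 13885 genes. GC content and length are those of the main transcript, ranked by APPRIS, basic tag, support level and length. The trend was an ordinary least squares fit with linear and squared terms of GC content, log10 length and log10 mean; residuals were centred on their median and tested with the deposited SE, adjusted over all genes. Intervals are 95%, from the normal distribution. They and the levels in percent use the deposited fold changes and SEs, which are probably shrunken. Start windows came from RefSeq (GRCh38.p14). Members and lists were chosen with earlier results of these data known. All members but 1 are given in their group; of the other lists up to 3 genes by smallest adjusted p were named, except that 1 gene and the member left out, which stay in all counts and medians, are not reported here; further genes, chosen after their values were seen, complete a count. Steps were tested on simulated data in Python 3.11.15 (numpy 2.4.6, pandas 2.3.3, scipy 1.17.1, matplotlib 3.10.9).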

Additional observations from a re-analysis of the deposited data

How the results depend on the processing

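No paired analysis was possible because the table gives no value per sample, and for the same reason no replicate could be left out. Centring on the median moved values by only 0.0059 and changed no call. Whether the deposited fold changes were shrunk is not stated. Their largest SE was 0.295, and among members the fold change over its SE differed from the Wald statistic by up to 0.027. At an adjusted p of 0.01, 10 members were higher and 4 lower, with 1 of U2 lower, 1 of the tri-snRNP higher and 0 lower, and 0 of the Sm ring lower; at 0.1, 2 of the Sm ring were lower. With a log2 change of at least 0.5, 3 members were lower, 1 of U2 and 0 of U1, the tri-snRNP and the Sm ring. Tested against a log2 change of 0.3, 3 members were higher, 1 each of the tri-snRNP (PRPF4B), U2 (DDX46) and U1, and 0 lower, with 0 lower in U1, U2, the tri-snRNP, the Sm ring and the LSm ring and 0 higher in the Sm ring. With the trend removed, 0 of U1, U2 and the Sm ring were lower and 1 of the tri-snRNP was higher; of the Prp19 and catalytic genes 0 were higher and 2 lower, and of the other LSm-fold genes 1 was lower. With Wald statistics scaled to their robust SD, 0 members were higher and 0 lower, in any particle. Estimated without shrinkage, under a normal prior, 15 members were higher and 9 lower, 2 of the latter in the Sm ring. By its formula that setting could only add calls. Of the U1 snRNP with SNRNP70, SNRPA and SNRPC alone 0 genes were higher and the median was -0.062. Of U2 without DDX46 and DHX15, 2 were higher and the median was -0.11, and of the tri-snRNP without PRPF4B, PRPF38A and PRPF38B 0 were higher. The cause of these differences was not tested. No call of a member turned its direction, but only centring and removal of the trend could turn a sign. With the trend removed some members that did not pass changed sign, XAB2, SF3A2 and LSM7 among them.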
